A study of Mus musculus with 6 samples.

Results

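A set of 8 chemokine system genes was followed in cultured mouse keratinocytes that lacked the maintenance DNA methyltransferase DNMT1. They were taken by name from the gene count table, and all 8 of 8 were found among its 43629 gene identifiers. The group holds 6 CC chemokines (Ccl2, Ccl5, Ccl7, Ccl17, Ccl20 and Ccl27a), the CC chemokine receptor gene Ccr2 and the CX3C chemokine gene Cx3cl1, which is a chemokine of another class. The names were chosen by their counts and fold changes in earlier results of these libraries, so the differences of these 8 genes between the groups are given as a description. No p is given for them, and where they lie against the thresholds used for all genes is part of that description and supports nothing. Tests are given for other genes, but their lists were also drawn up with earlier results of these libraries known. The number that passed in such a list is thus a description as well.

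The series compared epidermal keratinocytes of 3 control and 3 Dnmt1Δ/Δep mice, 1 library per mouse, with the aim of finding which responses of the innate immune system arise in the keratinocytes themselves. In Dnmt1Δ/Δep mice a Cre recombinase under the keratin 5 promoter, which is active in the basal layer of the epidermis and its derivatives, deletes floxed Dnmt1. The study's text names as control animals with 1 or 2 floxed Dnmt1 alleles and no Cre, a figure legend on another measurement also counts Cre carriers with 1 floxed allele, and the labels do not give the genotype of each control library beyond the word control. All 6 animals were labelled female. Epidermis was taken at postnatal day 3 and the cells were cultured for 5 days according to the labels, in keratinocyte growth medium with 0.05 mM CaCl2 and 8% serum (chelated, from fetal calves), on dishes coated with collagen and fibronectin. A figure legend of the study gives a shorter culture time. RNA was selected for poly(A) and sequenced.

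Chemokines are small secreted proteins that guide migrating leukocytes along a concentration gradient by binding receptors of the G protein-coupled class. In skin, keratinocytes can make several of them, among them CCL20, which attracts cells that carry CCR6, and CCL27, which attracts skin-homing T cells that carry CCR10. CCL2 and CCL7 are ligands of CCR2, the receptor best known from inflammatory monocytes, CCL5 binds CCR1 and CCR3 among others, and CCL17 binds CCR4. CX3CL1, or fractalkine, is made as a membrane-bound protein whose soluble form is released by ADAM proteases, and its receptor is CX3CR1. CpG methylation of promoters can restrict transcription, and DNMT1 copies methylation to the new strand when DNA is replicated.

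Because the altered enzyme acts on CpG dinucleotides, the DNA just before the RefSeq start of the genes is shown first, as a reference for the promoters that these cells carry and not as a measurement of methylation. RefSeq promoter entries on GRCm38.p6 matched 5 of the 8 genes (7 windows, with 3 alternative starts for Ccl27a). The sequences below are on the plus strand, 5′ to 3′, with each CpG in capitals. Ccl20 and Ccl17 are shown over the whole 250 bases before the start. The window of Cx3cl1 is shown up to the first base before its GENCODE start, and of Ccr2 the 28 bases around its CpG are shown, since annotated first exons reach into the rest of both windows. The Ccr2 stretch lies before the RefSeq start of that window but after the GENCODE start of the gene at 124101950, and so within the span of the gene given with its reads.
Ccl20, chr1:83116516-83116765: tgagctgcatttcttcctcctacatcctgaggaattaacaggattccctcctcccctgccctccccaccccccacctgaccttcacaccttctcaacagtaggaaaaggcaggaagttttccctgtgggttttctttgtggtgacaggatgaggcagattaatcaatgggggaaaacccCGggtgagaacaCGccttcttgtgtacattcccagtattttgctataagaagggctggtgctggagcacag
Ccl17, chr8:94810203-94810452: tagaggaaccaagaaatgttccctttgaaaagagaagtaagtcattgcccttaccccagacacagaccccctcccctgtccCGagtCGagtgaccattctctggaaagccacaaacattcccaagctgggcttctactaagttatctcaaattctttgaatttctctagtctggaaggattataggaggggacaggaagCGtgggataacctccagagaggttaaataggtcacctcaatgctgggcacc
Cx3cl1, chr8:94771930-94772008: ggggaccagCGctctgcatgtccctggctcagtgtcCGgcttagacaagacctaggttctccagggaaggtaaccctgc
Ccr2, chr9:124102080-124102107: gctcttttatctcCGccttctctttctg

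Among 32841 RefSeq windows of the same 250 bases, the median held 6 CpGs. The Ccr2 window held 1 CpG, and 18.8% of all windows held as many or fewer. The window of Ccl20 held 2, that of Ccl17 held 3 and that of Cx3cl1 held 14, a count that 70.6% of the windows did not reach. The 3 windows of Ccl27a held 4, 6 and 12. Of the 5 matched genes, Ccr2, Ccl20 and Ccl17 thus had fewer CpGs than the median, and Cx3cl1 had more. Ccl27a had windows below, at and above the median, and the one with 4 lies within the span of the gene. In Cx3cl1 most of the CpGs lie past the printed stretch, after the GENCODE start. A search on both strands for the kappaB consensus, the site bound by NF-kappaB factors, found it in 3.9% of all windows and once among the 7, in Ccl20. It lay on the minus strand, 80 to 71 bases before the start, and its last base on the plus strand was the C of 1 of the 2 CpGs. GAAA followed by any 2 bases and GAAA again, a pattern of interferon-responsive promoters, was present in 2.98% of all windows and in none of the 7. TGANTCA, the pattern of AP-1 factors, was present in 6.75% of all windows and in 1 of Ccl27a, where the match counts on both strands because the pattern reads the same on each. TATAAA was present in 12.4% of all windows and in that of Cx3cl1, where it lies after the GENCODE start. These matches describe letters and not binding.

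**Figure D1:**
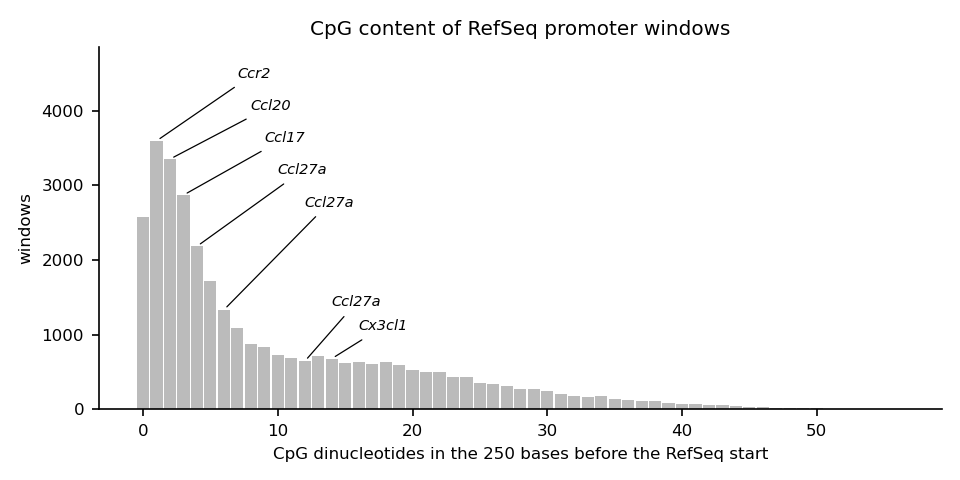
CpG dinucleotides in the 250 bases before the RefSeq start (x axis) against the number of windows with that count (y axis), for 32841 windows. Lines mark the 7 windows of the 5 matched genes, with Ccr2 at 1 CpG and Cx3cl1 at 14.

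Reads counted on genes numbered between 53433121 and 115526598 per library, and scaling factors lay between 0.980 and 1.02. Dnmt1 itself checked the labels, with 394, 379 and 324 CPM (counts per 1000000 gene reads) in control replicates 1, 2 and 3 and 49.7, 54.3 and 50.7 CPM in the Dnmt1Δ/Δep replicates, a log2 fold change of -2.83 ± 0.11 (SE; edgeR's quasi-likelihood test, Benjamini-Hochberg adjusted p = 8.12e-05). These counts cover the whole gene and not the deleted part alone. Keratinocyte markers were abundant in every library (9 of 9 markers with reads, together 30324 to 34073 CPM in control and 22848 to 23275 CPM in Dnmt1Δ/Δep libraries), and none of the 9 passed both thresholds. Krt5, Krt14 and Col17a1 were lower below the fold threshold (log2 fold changes -0.50, -0.61 and -0.55, adjusted p = 0.0380, 0.0275 and 0.0347, edgeR), and the differentiation markers Krt1 and Krt10 had log2 fold changes of -2.30 and -1.58 (adjusted p = 0.0846 and 0.0695, edgeR). Control replicate 1 was at the level of the Dnmt1Δ/Δep libraries for both, with 53.2 CPM of Krt1 beside 356 and 530 CPM in control replicates 2 and 3 and 59.2 to 66.1 CPM in Dnmt1Δ/Δep, and with 9.63 CPM of Krt10 beside 32.1 and 29.7 CPM and 6.30 to 10.6 CPM. Here and below, passing the thresholds means both an adjusted p up to 0.05 and a change by 1 or more on the log2 scale. Of 16829 genes with enough reads to test, 1014 (6.03%) passed upward and 66 (0.392%) downward.

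Of the 8 genes 7 had enough reads to test, and Ccl17 did not. Of the 7, 3 lay past the thresholds upward (Ccr2, Ccl2 and Cx3cl1) and none downward, where 6.03% of all tested genes did upward, a count that the choice of the genes largely settled. In 5 of the 7 every Dnmt1Δ/Δep library lay above every control library, against 18.2% of all tested genes, and in Ccl7 and Ccl27a the groups overlapped. The median log2 fold change of the 7 was 2.49, the same with Ccr2 at its lower bound, and that of all tested genes was -0.00. Since these genes were listed for what they did in these libraries, nothing is read from those shares. In bulk RNA, a change in the number of cells that express a gene and a change in its RNA per cell cannot be told apart.

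**Figure D2:**
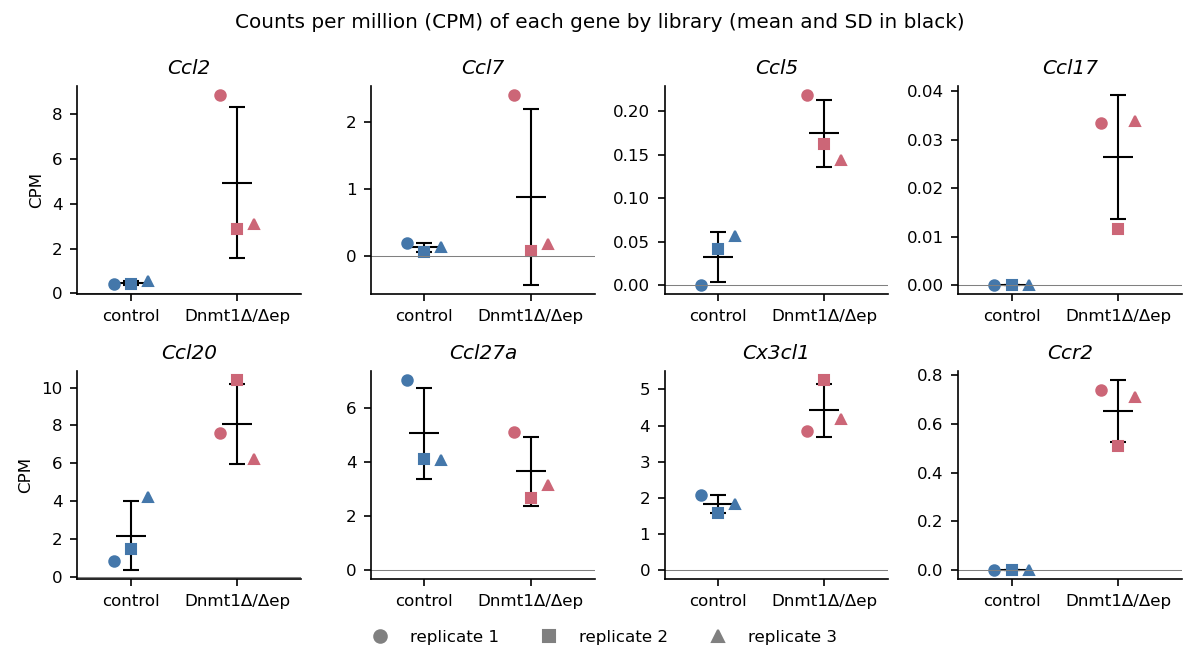
CPM (y axis, 1 scale per panel) of the 8 genes in 3 control and 3 Dnmt1Δ/Δep libraries, with symbols for the replicate number and the mean ± SD in black. Ccr2 is at 0 in the 3 control libraries and between 0.509 and 0.738 CPM in the others, and Ccl7 is high in 1 library.

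Ccl2 and Ccl7 encode ligands of CCR2 and lie next to each other on chromosome 11, at 82035571 to 82037453 and 82045712 to 82047525 on the plus strand of GRCm38, with starts 10.1 kb apart. Ccl2 measured 0.423, 0.400 and 0.558 CPM in control replicates 1, 2 and 3, from 40, 39 and 30 reads. In the Dnmt1Δ/Δep replicates it measured 8.82, 2.89 and 3.08 CPM, from 526, 250 and 363 reads. All Dnmt1Δ/Δep libraries were thus well above the control libraries, and replicate 1 was far above its own group. The means were 0.460 ± 0.0856 and 4.93 ± 3.37 CPM (SD, n = 3 each), and the log2 fold change was 3.43 ± 0.50 (SE). Without Dnmt1Δ/Δep replicate 1 it was 2.70.

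Ccl7 stood differently, although it has the same receptor and sits beside Ccl2. It measured 0.190, 0.0513 and 0.130 CPM in the control and 2.40, 0.0694 and 0.170 CPM in Dnmt1Δ/Δep cells. The single high value came from Dnmt1Δ/Δep replicate 1, with 143 reads, while replicates 2 and 3 had 6 and 20 reads and lay within the control range. The log2 fold change of 2.78 ± 1.29 (SE) therefore rested on 1 library, and it was -0.02 without it. Replicate 1 was the library in which Ccl2 was highest as well.

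Fibroblast markers also differed between these libraries. The 8 markers, Col1a1, Col1a2 and Pdgfra among them, were all tested and none passed the thresholds. Their summed level was 20.8, 33.7 and 15.7 CPM in control replicates 1, 2 and 3, and 67.3, 17.0 and 63.2 CPM in the Dnmt1Δ/Δep replicates. It was high in Dnmt1Δ/Δep replicates 1 and 3 and within the control range in replicate 2. In replicate 2 Ccl2, Ccl5, Ccl20, Cx3cl1 and Ccr2 were each above all 3 control libraries and Ccl7 was not. The part of fibroblasts in these values was not tested.

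The other genes of the Ccl2 cluster gave no reads. Ccl11, Ccl12 and Ccl8, which encode further ligands of eosinophil and monocyte receptors, were listed at 0 in all 6 libraries. None of the 6 protein-coding genes that start within 250 kb of Ccl2 or Ccl7, these 3 included, had enough reads to test.

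Ccl5 encodes a ligand of T cells, monocytes and eosinophils and lies 1495 kb from Ccl2, at 83525778 to 83530518 on the minus strand of chromosome 11. Its reads were few, with 0, 4 and 3 in control and 13, 14 and 17 in Dnmt1Δ/Δep replicates 1, 2 and 3. This corresponds to 0, 0.0410 and 0.0558 CPM against 0.218, 0.162 and 0.144 CPM, and the groups did not overlap. The pooled ratio was 5.85, with an exact 95% interval of 2.61 to 15.4 that covers counting error and not the spread between mice. The log2 fold change was 2.49 ± 0.79 (SE), between 1.84 (without control replicate 1) and 2.97 when 1 library at a time was left out.

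Ccl20 encodes the ligand of CCR6 and lies on chromosome 1, at 83116766 to 83119167 on the plus strand. It measured 0.846, 1.45 and 4.24 CPM in control replicates 1, 2 and 3 and 7.58, 10.4 and 6.23 CPM in the Dnmt1Δ/Δep replicates. Control replicate 3 was high within its group, yet still below the lowest Dnmt1Δ/Δep library. The means were 2.18 ± 1.81 and 8.06 ± 2.11 CPM (SD, n = 3 each), with a log2 fold change of 1.91 ± 0.56 (SE). Ccl20 lay outside the thresholds with all 6 libraries. It lay inside them without control replicate 3, at a log2 fold change of 2.81, and also with DESeq2 or without the filter on low counts. Libraries with the same replicate number shared a sequencing lane, and within the numbers 1, 2 and 3 the log2 ratios were 3.16, 2.84 and 0.55. The smallest ratio belonged to the number with the high control.

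Ccl17, a ligand of CCR4 that dendritic cells are known for, was at the limit of detection. It had no read in the control libraries and 2, 1 and 4 reads in the Dnmt1Δ/Δep libraries. Read as up to 3 counts, a count of 0 allows up to 0.0317, 0.0308 and 0.0558 CPM in control replicates 1, 2 and 3, and the Dnmt1Δ/Δep mean of 0.0263 ± 0.0128 CPM lay under each of these, so that no fold change is given. The floor covers counting error only. Ccl17 lies on chromosome 8, at 94810453 to 94812036 on the plus strand, 38.4 kb from Cx3cl1.

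Ccl27a, which encodes the CCR10 ligand that the epidermis is known to make, was lower in the Dnmt1Δ/Δep mean, and the groups overlapped. It measured 7.03, 4.10 and 4.08 CPM in control and 5.12, 2.68 and 3.17 CPM in Dnmt1Δ/Δep replicates 1, 2 and 3. The log2 fold change was -0.48 ± 0.32 (SE), between -0.79 and -0.17 when 1 library at a time was left out. The ratio was below 1 within each replicate number, with log2 values of -0.46, -0.61 and -0.36. The gene spans 41769467 to 41774247 on the minus strand of chromosome 4 and shares 8 bases (0.337% of its exon length) with Il11ra1 on the other strand. Its near-identical copy Ccl27b was listed at 0 in all libraries. Since uniquely mapped reads were counted, reads that fit both copies would be missing from Ccl27a, and its level is uncertain to that extent.

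Cx3cl1 differed by little but evenly. It measured 2.07, 1.58 and 1.82 CPM in control and 3.84, 5.25 and 4.19 CPM in Dnmt1Δ/Δep replicates 1, 2 and 3. No library came near the other group. The means were 1.83 ± 0.246 and 4.43 ± 0.734 CPM (SD, n = 3 each) and the log2 fold change was 1.28 ± 0.21 (SE), the smallest error among the 7 tested genes. Cx3cl1 lay inside the thresholds with all libraries but not without control replicate 2, at a log2 fold change of 1.18, nor without Dnmt1Δ/Δep replicate 2, at 1.085. It lies at 94772009 to 94782427 on the plus strand of chromosome 8. The main proteases that release fractalkine were expressed at a high level, Adam10 at 286 ± 21.3 and 281 ± 51.7 CPM (adjusted p = 0.948, edgeR) and Adam17 at 100.2 ± 3.97 and 117 ± 2.77 CPM (adjusted p = 0.155, edgeR) in control and Dnmt1Δ/Δep libraries (SD, n = 3 each). Neither passed the thresholds, and none of the 5 tested genes of 6 listed proteases that trim chemokines did.

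Ccr2 was the receptor of the group and had the clearest separation, at a low level. No read was counted in any control library, and 44, 44 and 84 reads were counted in Dnmt1Δ/Δep replicates 1, 2 and 3, or 0.738, 0.509 and 0.712 CPM. The mean of 0.653 ± 0.126 CPM (SD, n = 3) was at least 16.6-fold higher than the floor of 3 counts per control library, a mean of 0.0394 CPM. Ccr2 was not tested when a mean of at least 1 RPKM (CPM divided by exon length in kb) was required. The gene spans 124101950 to 124113557 on the plus strand of chromosome 9.

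**Figure D3:**
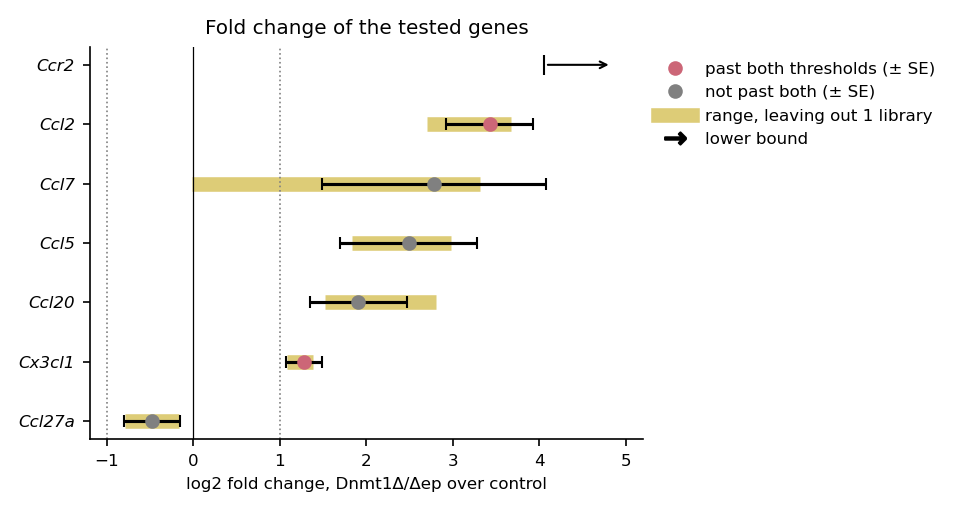
Log2 fold change of Dnmt1Δ/Δep over control libraries (x axis) for the 7 tested genes, as a point with its SE, or an arrow from the lower bound for Ccr2. Pale bars span the values when 1 library is left out, and that of Ccl7 reaches -0.02, while that of Cx3cl1 stays between 1.085 and 1.38.

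CCR2 is known from monocytes, so markers of blood cells were set beside it. Of the 5 pan-leukocyte markers only Coro1a could be tested, and it rose from 0.495 ± 0.0202 to 4.79 ± 0.604 CPM (SD, n = 3 each; log2 fold change 3.27 ± 0.21 SE, adjusted p = 0.000354, edgeR). Their sum was 0.550 to 0.670 CPM in control and 4.38 to 6.01 CPM in Dnmt1Δ/Δep libraries and was mostly Coro1a. Ptprc, which encodes the leukocyte antigen CD45, had 0, 0 and 2 reads in control and 12, 1 and 0 reads in Dnmt1Δ/Δep replicates 1, 2 and 3. In the same order, Cd53 had 0, 0 and 5 and then 11, 3 and 12 reads. Laptm5 had 3, 6 and 3 and then 3, 6 and 15 reads, and Rac2 had 0, 1 and 0 and then 7, 0 and 0. By CPM, Ccr2 was highest in replicate 1, which had the most Ptprc reads. It was nearly as high in replicate 3, which had no Ptprc read but the most reads of Cd53 and Laptm5.

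Of the 10 monocyte and macrophage markers 6 were tested, and 2 rose and none fell, beside 6.03% and 0.392% of all tested genes. Csf1r, the receptor for macrophage colony-stimulating factor, rose from 0.238 ± 0.134 to 1.54 ± 0.821 CPM (SD, n = 3 each; adjusted p = 0.0271, edgeR), and the adjusted p was 0.0534 with the replicate number as a block and 0.0736, 0.0880 and 0.0677 without control replicate 3, Dnmt1Δ/Δep replicate 1 and Dnmt1Δ/Δep replicate 3. By replicate 1, 2 and 3, Csf1r measured 0.137, 0.390 and 0.186 CPM in control and 2.42, 0.786 and 1.43 CPM in Dnmt1Δ/Δep libraries. Itgam, which encodes CD11b, rose from 0.309 ± 0.266 to 1.50 ± 0.296 CPM (SD, n = 3 each; adjusted p = 0.0466, edgeR). Its adjusted p was 0.00691 without control replicate 3 and between 0.0525 and 0.164 without any other single library, so that 1 of these 6 fits kept the call. The markers Adgre1, which encodes F4/80, and Fcgr1 had at most 1 read in any library, Lyz2 had at most 6, and Ly6c2 had 1, 0 and 8 reads in the Dnmt1Δ/Δep libraries and none in control. Cd68, a lysosomal protein gene that is not confined to macrophages, measured 54.1 ± 7.08 and 106 ± 8.05 CPM (SD, n = 3 each) and stayed under the fold threshold, at a log2 fold change of 0.97 ± 0.12 (SE; adjusted p = 0.00406, edgeR). The Langerhans cell marker Cd207 had 1 read in all, and none of the 4 tested of 8 Langerhans and dendritic cell markers passed. Of these, Cd74, which encodes the MHC class II invariant chain, had 0, 0 and 7 reads in control and 29, 14 and 43 reads in Dnmt1Δ/Δep replicates 1, 2 and 3 (log2 fold change 3.30 ± 1.19 SE, adjusted p = 0.143, edgeR), and H2-Eb1, a class II chain, had 3, 122 and 6 and then 82, 125 and 263 reads (adjusted p = 0.348, edgeR). Among the markers with too few reads to test, H2-Aa had 0, 0 and 1 reads in control and 8, 5 and 19 in Dnmt1Δ/Δep libraries, Flt3 had none in control and 6, 4 and 5, and Itgax had 0, 0 and 1 in control and 2, 5 and 5. The sum of these 8, mostly Epcam, was 114 to 154 CPM in control and 178 to 233 CPM in Dnmt1Δ/Δep libraries. The T and NK cell markers summed to 0.444 to 1.30 CPM and 0.992 to 1.19 CPM. The part of any such cells in the Ccr2 and Ccl2 reads was not tested.

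Levels of different genes were compared per length, as RPKM. In control libraries Ccl27a was first at 2.13 ± 0.714 RPKM, followed by Ccl20 at 1.53 ± 1.28, Cx3cl1 at 0.465 ± 0.0626, Ccl2 at 0.405 ± 0.0752, Ccl7 at 0.155 ± 0.0870 and Ccl5 at 0.0336 ± 0.0301 RPKM (SD, n = 3). Ccl17 and Ccr2 were at 0. Ccl27a and Ccl20 overlapped in their libraries, as did Cx3cl1 and Ccl2, whereas Ccl20 lay above Cx3cl1, Ccl2 above Ccl7 and Ccl7 above Ccl5 in all 3 libraries. The keratinocyte chemokines Ccl27a and Ccl20 were thus the most abundant of the 8 in control cells.

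In Dnmt1Δ/Δep libraries Ccl20 was first at 5.67 ± 1.49 and Ccl2 second at 4.33 ± 2.96 RPKM (SD, n = 3), with overlapping ranges. Ccl27a at 1.54 ± 0.542, Cx3cl1 at 1.13 ± 0.187 and Ccl7 at 1.10 ± 1.64 RPKM followed, and each overlapped with the gene after it in the order. Ccl5 at 0.182 ± 0.0402, Ccr2 at 0.0966 ± 0.0186 and Ccl17 at 0.0512 ± 0.0249 RPKM were the lowest. The lowest Ccl2 library, at 2.54 RPKM, lay above the highest Ccl27a library, at 2.15 RPKM, while in control each Ccl27a library lay above each Ccl2 library. The receptor Ccr2 was thus far below its ligand Ccl2 per length.

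**Figure D4:**
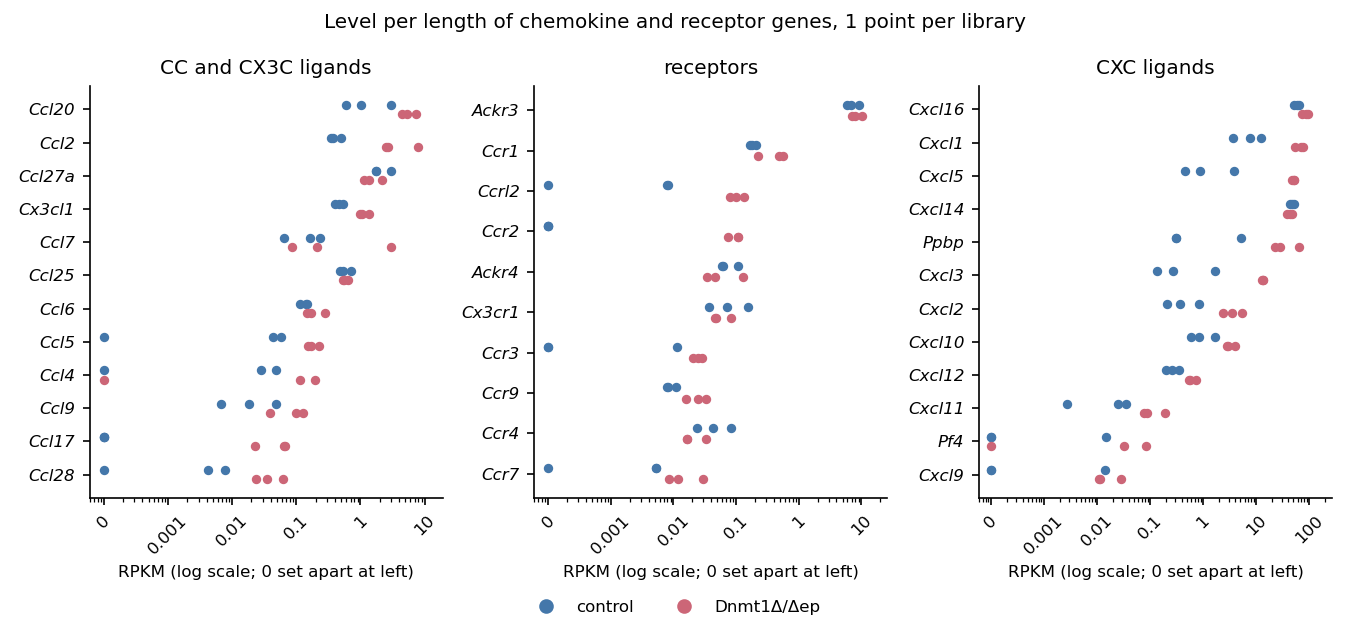
RPKM on a log axis (0 set apart at the left) for CC and CX3C ligands, receptors and CXC ligands with a mean of at least 0.01 RPKM in either group, 1 point per library. Ccl20 and Ccl2 lead the first panel in Dnmt1Δ/Δep libraries, and most CXC ligands lie higher in those libraries than in control.

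Most other CC ligands gave no reads. Of 19 further CC and XC ligands 18 were in the table, 12 were at 0 in all 6 libraries and 4 could be tested, of which 1 passed upward and none downward, beside 6.03% and 0.392% of all tested genes. That gene was Ccl28, which encodes an epithelial ligand of CCR3 and CCR10, with 0, 2 and 2 reads in control and 18, 10 and 20 reads in Dnmt1Δ/Δep replicates 1, 2 and 3. The pooled ratio was 11.2 with an exact 95% interval of 4.09 to 42.7 for counting error. Its adjusted p of 0.0479 (edgeR) lay just inside the threshold, was 0.0649 with the replicate number as a block and lay between 0.0592 and 0.165 when any 1 library was left out. Ccl25, the most abundant of these ligands and one that binds CCR9, measured 4.29 ± 0.946 and 4.28 ± 0.423 CPM (SD, n = 3 each; log2 fold change -0.01 ± 0.21 SE, adjusted p = 0.989, edgeR). Ccl6, the second most abundant, had a log2 fold change of 0.54 ± 0.38 (SE; adjusted p = 0.474, edgeR).

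The other receptor genes had at most 136 reads in any library, apart from the scavenging receptor gene Ackr3. Of 17 other CC, XC, CX3C and atypical receptor genes 6 could be tested, and 1 passed upward and none downward, beside 6.03% and 0.392% of all tested genes. This was Ccrl2, an atypical receptor that presents chemerin, with 2, 2 and 0 reads in control and 21, 18 and 30 reads in Dnmt1Δ/Δep replicates 1, 2 and 3. The pooled ratio was 16.0 with an exact 95% interval of 5.99 to 60.6 for counting error, and the adjusted p was 0.0106 (edgeR) with all libraries and 0.0579 without control replicate 2. Ccr1, a receptor of CCL5 and CCL7, measured 0.521 ± 0.0672 and 1.19 ± 0.499 CPM (SD, n = 3 each), and its log2 fold change of 1.19 ± 0.39 (SE) had an adjusted p of 0.109 (edgeR). Ccr9, the receptor of CCL25, had 8, 8 and 6 reads in control and 20, 22 and 19 reads in Dnmt1Δ/Δep libraries, at a log2 fold change of 1.42 ± 0.45 (SE; adjusted p = 0.10, edgeR). Ackr3, the most abundant, measured 24.4 ± 5.84 and 28.4 ± 5.71 CPM (SD, n = 3 each; adjusted p = 0.621, edgeR). Cx3cr1, the receptor of Cx3cl1, measured 0.391 ± 0.267 and 0.263 ± 0.0919 CPM (SD, n = 3 each; adjusted p = 0.591, edgeR). Ccr6, the receptor of Ccl20, had 2 reads in 1 library, and Ccr10, the receptor of Ccl27a, had at most 3 reads in any.

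CXC ligands, a family that includes attractants of neutrophils, such as Cxcl1, and of activated T cells, such as Cxcl10, were examined beside them. Of 15 listed genes 10 could be tested, and 6 passed upward and none downward, beside 6.03% and 0.392% of all tested genes. Their median log2 fold change was 2.76, and that of all tested genes was -0.00. Cxcl1 rose from 14.7 ± 8.14 to 123 ± 20.2 CPM (SD, n = 3 each; adjusted p = 0.00556, edgeR), and Cxcl5 from 3.23 ± 3.48 to 91.8 ± 3.04 CPM (SD, n = 3 each; adjusted p = 0.00958, edgeR). Cxcl2 rose from 0.959 ± 0.662 to 7.74 ± 3.17 CPM (SD, n = 3 each; adjusted p = 0.0163, edgeR). The others were Cxcl3, Cxcl10 and Cxcl12, with log2 fold changes of 4.22, 1.66 and 1.18 and adjusted p-values (edgeR) of 0.0243, 0.0376 and 0.0311. Of the 6 fits that left out 1 library, Cxcl3 and Cxcl10 each passed in 2 and Cxcl12 in 1. Cxcl2 passed in 5 of them, and Cxcl1 and Cxcl5 in 6. Without control replicate 1 the log2 fold change of Cxcl3 was 6.08. Cxcl16 and Cxcl14, the 2 with the highest CPM in control, did not pass, at log2 fold changes of 0.56 ± 0.13 and -0.17 ± 0.12 (SE; adjusted p = 0.0403 and 0.475, edgeR). The number that passed fell to 2 without Dnmt1Δ/Δep replicate 1 and to 3 without replicate 2 or replicate 3 of that group.

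The genomic surroundings of the 8 genes were examined for neighbours that behaved alike. Of 71 other protein-coding genes that start within 250 kb, 63 were in the table, 33 were tested and 2 passed upward, beside 6.03% of all tested genes, and none passed downward. One was Pllp, a membrane protein gene of myelin and epithelia that lies 75.7 kb from Cx3cl1. It measured 0.127, 0.154 and 0.0372 CPM in control and 1.98, 1.51 and 0.424 CPM in Dnmt1Δ/Δep replicates 1, 2 and 3, with a log2 fold change of 3.52 ± 0.70 (SE; adjusted p = 0.0227, edgeR). The other was Wfdc18, 178 kb from Ccl5, which measured 0.0317, 0.0410 and 0.130 CPM in control and 0.453, 0.439 and 0.347 CPM in Dnmt1Δ/Δep cells, with a log2 fold change of 2.72 ± 0.56 (SE; adjusted p = 0.0256, edgeR). Each passed in 2 of the 6 fits that left out 1 library. The adjusted p of Pllp was 0.0748 and 0.0518 without control replicates 2 and 3 and 0.0789 and 0.0707 without Dnmt1Δ/Δep replicates 1 and 2, and that of Wfdc18 was 0.121 without control replicate 2 and 0.0899, 0.0880 and 0.0641 without Dnmt1Δ/Δep replicates 1, 2 and 3.

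Between Pllp and Ccl17, Ccl22, another ligand of CCR4, had at most 3 reads in any library, so that in this stretch of chromosome 8 Cx3cl1 was the chemokine gene with a measurable level. Around Ccr2, the receptor genes Ccr3 and Ccr1l1 had too few reads to test, with Ccr3 at 0, 0 and 2 reads in control and 4, 7 and 11 reads in the Dnmt1Δ/Δep libraries. Near Ccl20 the single testable neighbour was Slc19a3, at a log2 fold change of 0.16 ± 0.34 (SE; adjusted p = 0.855, edgeR). Near Ccl27a none of 9 tested neighbours passed.

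**Figure D5:**
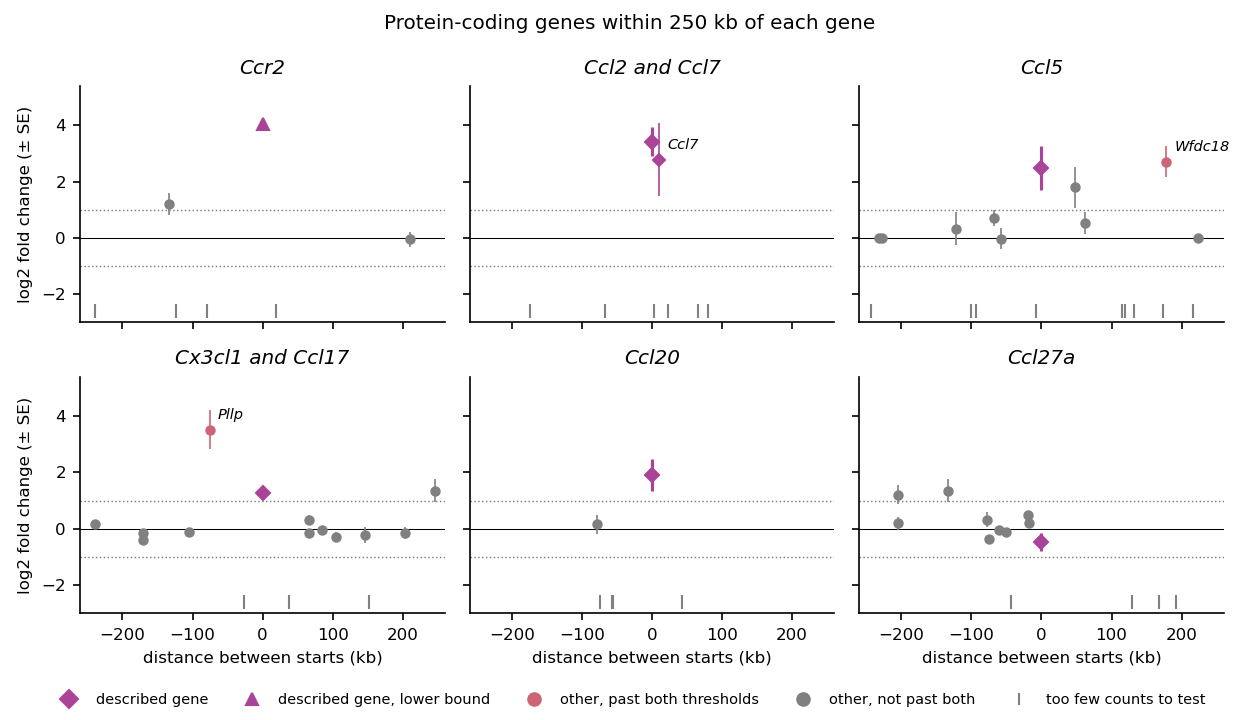
Log2 fold change ± SE (y axis) of protein-coding genes against the distance of their start from that of the named gene in kb (x axis), in 6 regions. Purple marks the described genes, with a triangle at the lower bound of Ccr2, and of the others Pllp and Wfdc18 passed both thresholds upward, while ticks at the bottom are genes with too few counts to test.

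The genes most like each of these across the 6 libraries were ranked by Pearson's r of log2 CPM over all tested genes. For Ccr2 they were Cox7b2, Trap1a and Ifi213, at r of 0.9999, 0.9999 and 0.9997, and 769 genes exceeded 0.95. For Ccl2 they were Unc93a, Serpinb9e and L1td1 (r = 0.994, 0.994 and 0.993), for Cx3cl1 they were Susd6, Tbrg1 and Vmn1r-ps28 (r = 0.997, 0.995 and 0.993), and for Ccl20 they were Abhd12b, Hspa1l and Aldh1a3 (r = 0.999, 0.997 and 0.997). For Ccl5 they were Map2k6, Gm16206 and Padi4, and for Ccl27a they were Hnrnph3, Rps27 and Hoxb3os. For Ccl7, whose pattern is that of 1 high library, Snord72, Catsper4 and Zdhhc24 led at r of 0.969, 0.969 and 0.968, and 12 genes exceeded 0.95. With 6 points that fall into 2 groups, such values mostly describe the separation of the groups.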

How the data were processed

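RNA with poly(A) tails was sequenced from keratinocyte cultures of 3 control and 3 Dnmt1Δ/Δep mice. The authors trimmed adapters, removed ribosomal reads, aligned with STAR and counted uniquely mapped reads per gene with the union model of HTSeq, and the deposited values are raw counts without normalization. The submitters' processing notes name GRCm38, whereas the methods name a human build for the index. The authors' tables of comparisons and repeats were not used, nor were 18 columns of per-sample values in them. Entries that name no gene were not used, and they held 8.73% to 12.9% of the reads. Of 43629 identifiers 42462 (97.3%) matched a symbol.

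Counts were tested with edgeR 4.0.16 in R 4.3.3 (quasi-likelihood test, TMM factors, filterByExpr with minimum counts of 10 and 15, Benjamini-Hochberg over 16829 genes). The SE of a log2 fold change is its size divided by the square root of the F statistic of the edgeR test. CPM are counts over library size times TMM factor, and RPKM divides CPM by exon length in kb from GENCODE M21. DESeq2 1.42.0, other scalings and filters, a replicate block and leaving out each library were alternatives. Intervals for ratios of pooled counts are exact binomial (95%, scipy 1.17.1), and figures used matplotlib 3.10.9. The correlations of log2 CPM used a prior count of 2. Replicates of 1 number shared a lane according to the table headers, and their deviations from the group means correlated at 0.460, 0.364 and 0.303 for numbers 1, 2 and 3, so the numbers were taken to pair the libraries. Other combinations of a control and a Dnmt1Δ/Δep replicate correlated at -0.454 to 0.116. The study's methods use no block, and values given without naming a block come from the fit without one. The depth of 53433121 to 115526598 gene reads makes 3 counts worth 0.0254 to 0.0558 CPM.

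The genes and lists were chosen with earlier results of these data known. Named are the 8 genes, Dnmt1, every gene past both thresholds in the lists of chemokines, receptors, proteases, inducing cytokines, NF-kappaB and IRF factors and cell markers, the 2 most abundant genes per chemokine list, the 3 genes most like each of the 8, and neighbours within 250 kb. Receptors and markers below the thresholds were named after their values were seen. Promoter sequences are RefSeq entries on GRCm38.p6, and gene positions are GENCODE M21 on GRCm38. A receptor gene and the summed level of the monocyte and macrophage markers are not reported here.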

Additional observations from a re-analysis of the deposited data

How the results depend on the processing

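The 7 tested chemokine genes kept their direction under the alternatives that tested them (Ccl5 and Ccr2 drop out with the RPKM filter), except Ccl7, whose uncalled value of 2.78 became -0.02 without Dnmt1Δ/Δep replicate 1. Between 2 and 4 of them passed the thresholds when 1 library was left out, and between 2 and 4 in the other alternatives. With the replicate block 3 passed, and the block ended the calls of Ccl28 and Csf1r and of no other named gene. Other CC and XC ligands that passed, 1 with all libraries, fell to 0 with the replicate block, with a mean of at least 1 RPKM in either group and without any 1 library (0 to 0), and the other receptors, also 1, went to 0 with the RPKM filter, to 2 with DESeq2 and to between 0 and 2 without 1 library. CXC ligands ranged from 2 to 7 without 1 library and from 4 to 8 in the other alternatives, with 8 under the replicate block. Over all genes, 395 passed upward with the RPKM filter, and between 559 (without control replicate 2) and 1183 without 1 library. Downward, 107 passed without a filter, 35 with the RPKM filter, 122 with DESeq2 and 279 with no fold threshold, and between 15 and 180 without 1 library. The RPKM filter tests fewer genes by its construction, and for the other changes the cause was not tested. With 1 read worth 0.00848 to 0.0186 CPM, Ccl17 and most receptors could not be compared at this depth.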

Other observations

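Among cytokines known to induce CC chemokines in keratinocytes and their receptors, 11 of 16 listed genes were tested and 2 rose, beside 6.03% of all tested genes. Tnf rose from 2.10 ± 1.28 to 13.7 ± 1.57 CPM (SD, n = 3 each; log2 fold change 2.73 ± 0.40 SE, adjusted p = 0.00739, edgeR), higher in 3 of 3 libraries than in every control library. Il1a, an epidermal alarmin, rose from 5.52 ± 3.64 to 84.1 ± 31.5 CPM (SD, n = 3 each; log2 fold change 3.93 ± 0.54 SE, adjusted p = 0.00574, edgeR). Both passed without any 1 library. The receptors Tnfrsf1a, Il1r1 and Il17ra did not pass both thresholds, at log2 fold changes of -0.11, -0.44 and 0.14, and Il1r1 had an adjusted p of 0.0410 (edgeR).

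All 22 listed NF-kappaB and IRF factors and their regulators were tested, and 4 rose and none fell, beside 6.03% and 0.392% of all tested genes. Irf1, a factor of interferon responses, rose from 4.56 ± 0.894 to 17.7 ± 1.02 CPM (SD, n = 3 each; adjusted p = 0.00102, edgeR). Tnfaip3, an inhibitor of NF-kappaB signalling, rose from 21.0 ± 4.90 to 54.8 ± 3.91 CPM (SD, n = 3 each; adjusted p = 0.00451, edgeR). Irf8, known from myeloid cells, had 2, 5 and 3 reads in control and 17, 26 and 42 reads in Dnmt1Δ/Δep libraries (adjusted p = 0.0114, edgeR), and Nfkbie had an adjusted p of 0.0495 (edgeR) that lay between 0.00208 and 0.159 in the alternatives. The adjusted p of Irf8 was 0.0562 without control replicate 2. The NF-kappaB subunit genes Rela, Nfkb1 and Rel did not pass, at log2 fold changes of -0.12, 0.15 and 0.00.

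Of the remaining marker lists, both tested neutrophil markers rose, beside 6.03% of all tested genes. These were S100a8 and S100a9 (log2 fold changes 1.50 and 1.48, adjusted p = 0.0250 and 0.0446, edgeR), which keratinocytes can express as well. The adjusted p of S100a8 was 0.0918 and 0.0767 without Dnmt1Δ/Δep replicates 1 and 2, and that of S100a9 was 0.00287 without control replicate 3 and between 0.0745 and 0.135 without any other single library. The neutrophil genes Ly6g, Mpo, Elane and Camp had at most 2 reads in any library. Of 5 endothelial markers, all tested, Pecam1 and Cdh5 rose (log2 fold changes 1.89 and 4.11, adjusted p = 0.00748 and 0.00966, edgeR), beside 6.03% of all tested genes. Kdr, Tek and Vwf did not pass. The log2 fold change of Cdh5 was 5.44 without control replicate 1 and 3.73 without control replicate 2. None of 2 tested mast cell and 6 tested melanocyte markers passed, and the melanocyte markers summed to 221 to 564 CPM in control and 676 to 897 CPM in Dnmt1Δ/Δep libraries.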
